A study of Homo sapiens with 7 samples.

Results

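CTCF peaks of K562 cells that were drawn as 1 peak in one condition and as several peaks in the other are described here. Control (non-treated) K562 cells and K562 cells kept with 10 μM pyridostatin (PDS) for 24 h had each given 1 list of CTCF peaks, called over IgG. Peaks of the lists on chromosomes 1 to 22 and X were linked when they overlapped by at least 1 bp, which gave 25403 overlap groups. In 339 of them, a single PDS peak lay over 2 or more control peaks (PDS-bridged groups, 701 control peaks). In 424, a single control peak lay over 2 or more PDS peaks (control-bridged groups, 862 PDS peaks). A further 24 groups had at least 2 peaks of both lists (mixed groups), and the remaining 24616 held 1 peak of each list (one-to-one groups). The split groups were thus chosen by the measured peak positions, and counts, widths, gaps, folds and p-values of their peaks are given as a description without a test. Sequence and gene annotation were not used to choose them.

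K562 is an established line of erythroleukemia cells that carries the BCR-ABL1 fusion, and all samples come from this line. PDS is a small molecule that binds and stabilizes folded G-quadruplexes (G4s). Each list was made from 2 CTCF samples, with 1 IgG sample of control cells and 2 IgG samples of PDS-treated cells among the samples used here. The lists hold no read counts and no values per replicate, so the depth and the spread between replicates are unknown, and every comparison below is between the lists and not between replicate cultures.

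CTCF is a zinc-finger protein that binds a GC-rich motif through its central fingers and, together with the ring-shaped cohesin complex, anchors chromatin loops and insulates neighbouring genes. Where it binds, ChIP-seq usually gives a sharp peak around the motif, so a broad peak can hold several sites or a site with a wide shoulder. A G4 is a stack of guanine tetrads formed by a G-rich strand, and G4-prone sequences are frequent at gene starts and CpG islands. A G4 motif was taken here as 4 consecutive G runs (3 G or longer) spaced by 1 to 7 nt on either strand, and the CTCF consensus as the 15-base consensus from ChIP-exonuclease data, searched on both strands.

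The stretches between separate peaks that the other list spans are termed gaps. Sequences of gaps from each kind of group are shown to let their composition be read directly. They are GRCh37 (hg19) reference sequences, written 5′ to 3′. For each kind, the gaps shown whole have the shortest width that the list allows and a GC content near the median of their kind, with stretches of 6 or more A or T in capitals. The gap between control peaks lies in an intron of SLC13A3 (chr20:45191701-45191940, plus strand, 52.5% GC).
SLC13A3: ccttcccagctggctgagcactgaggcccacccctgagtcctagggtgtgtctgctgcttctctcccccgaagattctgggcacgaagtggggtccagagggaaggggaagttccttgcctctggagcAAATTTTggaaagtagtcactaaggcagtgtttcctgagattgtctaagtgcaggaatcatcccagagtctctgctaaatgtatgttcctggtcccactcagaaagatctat
The gaps between PDS peaks lie in an intron of ZSWIM5 (chr1:45766201-45766400, plus strand, 39% GC) and near CD84 (chr1:160577151-160577350, plus strand, 40% GC, intergenic).
ZSWIM5: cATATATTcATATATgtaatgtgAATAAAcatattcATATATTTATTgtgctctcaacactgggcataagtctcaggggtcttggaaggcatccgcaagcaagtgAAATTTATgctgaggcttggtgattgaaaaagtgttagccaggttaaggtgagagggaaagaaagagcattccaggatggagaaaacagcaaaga
near CD84: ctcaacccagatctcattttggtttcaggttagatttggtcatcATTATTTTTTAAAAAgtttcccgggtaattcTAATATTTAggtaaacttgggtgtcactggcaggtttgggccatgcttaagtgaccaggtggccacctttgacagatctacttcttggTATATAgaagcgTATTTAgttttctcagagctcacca

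The CTCF consensus itself lay in a gap between PDS peaks in a few control-bridged groups. The 4 such sites that lay whole in the gap, outside untranslated exons, under the control peaks with the highest folds are shown with 30 bases on either side and the consensus in capitals. All 4 are on the minus strand, at chr4:10405532-10405606 (intergenic, near ZNF518B), chr11:12258212-12258286 (intron of MICAL2), chr6:52528594-52528668 (intergenic, near TMEM14A) and chr2:167241366-167241440 (intergenic, near SCN9A).
near ZNF518B: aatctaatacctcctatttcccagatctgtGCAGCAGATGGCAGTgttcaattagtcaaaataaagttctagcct
MICAL2: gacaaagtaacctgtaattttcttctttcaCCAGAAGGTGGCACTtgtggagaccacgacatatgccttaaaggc
near TMEM14A: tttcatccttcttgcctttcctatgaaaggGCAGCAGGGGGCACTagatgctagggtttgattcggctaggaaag
near SCN9A: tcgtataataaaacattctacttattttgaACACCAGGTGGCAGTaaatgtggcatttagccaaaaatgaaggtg

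G4 motifs also lay in gaps of both kinds, and examples are shown with 10 bases on either side and the motif in capitals. Those under a single PDS peak are at VEGFA (chr6:43741989-43742032, plus strand, in an exon of at least 1 annotated transcript), near IRX4 (chr5:2039073-2039117, plus strand, intergenic) and at BCAN (chr1:156628093-156628136, plus strand, intron).
VEGFA: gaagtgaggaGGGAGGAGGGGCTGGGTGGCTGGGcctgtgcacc
near IRX4: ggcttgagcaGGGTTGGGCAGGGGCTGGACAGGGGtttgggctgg
BCAN: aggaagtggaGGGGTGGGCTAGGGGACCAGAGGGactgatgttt
Those under a single control peak are near CDKN1C (chr11:2913812-2913854, minus strand, intergenic) and at NETO2 (chr16:47176957-47177005, minus strand, intron).
near CDKN1C: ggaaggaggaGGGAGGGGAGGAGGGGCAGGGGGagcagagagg
NETO2: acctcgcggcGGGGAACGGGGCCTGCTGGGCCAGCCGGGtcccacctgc

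Split groups were a small part of the shared sites. PDS-bridged groups made up 1.33% of the 25403 overlap groups (Wilson 95% confidence interval 1.20 to 1.48%), control-bridged groups 1.67% (1.52 to 1.83%) and mixed groups 0.0945% (0.0635 to 0.141%). These intervals cover counting error only. In most split groups the single peak faced a pair of peaks, in 320 of the 339 PDS-bridged and 411 of the 424 control-bridged groups. Among PDS-bridged groups, 17 had 3 control peaks, 1 had 4 and 1 had 6. Among control-bridged groups, 12 had 3 PDS peaks and 1 had 4.

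Which kind was more frequent depended on how the lists were treated. Peaks of the control list are on a 60 bp grid and never closer than 240 bp, whereas peaks of the PDS list are on a 50 bp grid and never closer than 200 bp. The methods of the study give a single window size for peak calling, and why the grids differ is not given in the sources used here. The PDS list had 4154 gaps of up to 500 bp between neighbouring peaks and the control list 1667. As deposited, control-bridged groups were the more numerous kind. After PDS peaks at the minimum distance of 200 bp were merged, there were 437 PDS-bridged and 264 control-bridged groups, and after merging within 500 bp there were 338 and 84. With gaps of at least 300 bp, which both lists can hold, the numbers were 190 and 143. Merging within 200 bp acts on the PDS list alone and can only remove control-bridged groups, so the direction of that count was fixed by the step. The grid itself was not changed in any of these counts. Since it differs between the conditions, its part in the order of the kinds cannot be told apart from that of the treatment.

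**Figure D1:**
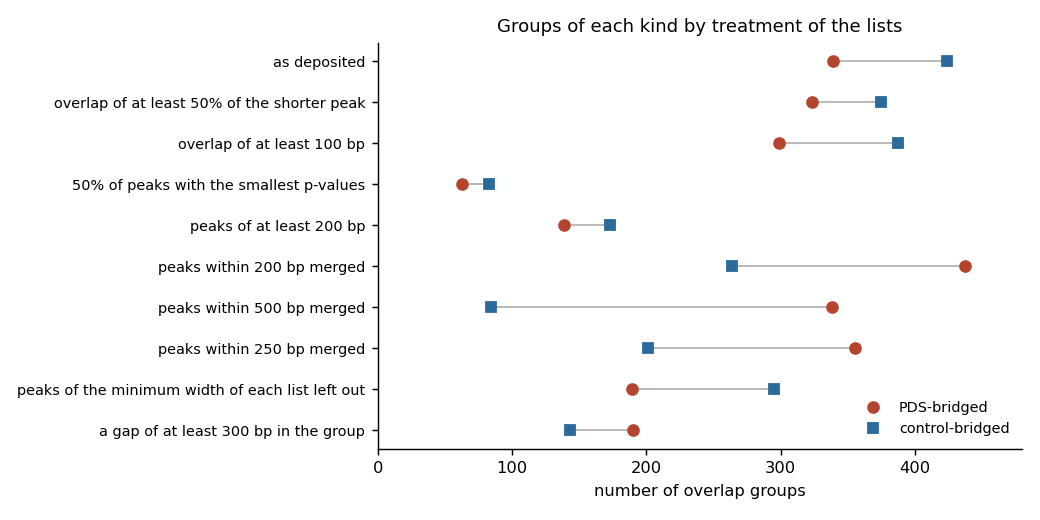
Number of overlap groups (horizontal axis) of the PDS-bridged (circles) and control-bridged kind (squares) with the lists as deposited and under 9 other treatments of the lists. The order of the kinds turns when peaks are merged within 200, 250 or 500 bp and when a gap of at least 300 bp is required, from 339 and 424 as deposited to 437 and 264 after merging within 200 bp.

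Many gaps, though under 50% in both kinds, were as short as their list allows. Among the 362 gaps of PDS-bridged groups, 164 (45.3%) were at the minimum of 240 bp, the median was 300 bp and the widest was 1440 bp. Among the 438 gaps of control-bridged groups, 165 (37.7%) were at 200 bp, the median was 250 bp and the widest was 950 bp. Gaps of at least 500 bp occurred in 41 PDS-bridged and 39 control-bridged groups.

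**Figure D2:**
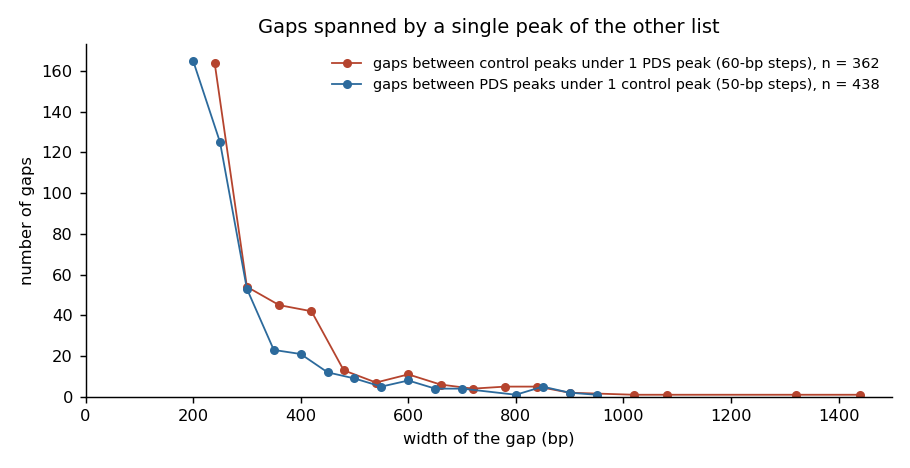
Number of gaps (vertical axis) by their width in bp (horizontal axis) in PDS-bridged (60 bp steps) and control-bridged groups (50 bp steps). Both curves start at the minimum distance of the list, with 164 gaps of 240 bp and 165 gaps of 200 bp, and extend to 1440 and 950 bp.

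Split groups were long, in part by construction, since each holds at least 2 peaks of a list and the gap between them. The median length was 1400 bp (500 to 6550 bp) for PDS-bridged, 1100 bp (500 to 6300 bp) for control-bridged and 2715 bp (1500 to 8350 bp) for mixed groups, against 500 bp for one-to-one groups. The separate peaks covered a median of 65.2% of the bridging peak in PDS-bridged and 64.1% in control-bridged groups. They were unequal in most groups. The widest separate peak had the smallest p-value in 304 PDS-bridged (89.7%) and 351 control-bridged groups (82.8%), and the fold enrichments of the best and worst separate peak differed by a median factor of 1.94 and 1.67, respectively. This factor is at least 1 by definition, and it was not computed for neighbouring peaks outside split groups. A separate peak of the minimum width of its list (120 bp in the control list and 100 bp in the PDS list) was present in 159 PDS-bridged groups (46.9%) and 137 control-bridged groups (32.3%). Such peaks made up 23.8% and 17.1% of the separate peaks, compared with 6.02% and 6.84% of the one-to-one peaks of the same lists.

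Folds are relative to the IgG of each condition and were compared between the kinds only as ranks within a list, where the percentile gives the share of peaks ranked lower. The bridging PDS peaks had a median percentile of 63.9 by fold and 84.7 by p-value, and the bridging control peaks 42.2 and 75.9. One-to-one peaks had medians of 59.3 (PDS) and 58.1 (control) by fold and 60.7 and 59.4 by p-value. The best separate peak of a group ranked at a median percentile of 72.8 by fold in PDS-bridged and 72.1 in control-bridged groups, and the worst at 24.7 and 22.97. Picking the best and the worst of a group sets these values apart by construction. Bridging control peaks thus ranked below one-to-one peaks by fold and above them by p-value. Bridging peaks were also wider, with medians of 1350 bp (PDS) and 960 bp (control) against 400 and 420 bp for one-to-one peaks. The ranks were not compared at equal width.

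Few split groups were linked by an overlap of 50 bp or less, but more one-to-one groups lay just outside the rule. The smallest overlap that linked a separate peak to the bridging peak was at most 10 bp in 3 PDS-bridged groups and in 0 control-bridged groups, and at most 50 bp in 9 and 6. Just outside the rule, 58 one-to-one groups had a second control peak ending or starting within 50 bp of the PDS peak, and 156 had a second PDS peak within 50 bp of the control peak. When links of at least 100 bp were required, there were 299 PDS-bridged and 387 control-bridged groups.

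The gaps differed in base composition between the kinds. In control-bridged groups the gap had a median GC content of 39.1% (quartiles 35.0 and 47.1%), against 48.3% in the separate PDS peaks of the same groups and 45% in the 300 bp beyond the group on either side. The gap was lower in GC than the separate peaks in 356 groups and higher in 66, with a median difference of -8.02 percentage points (two-sided exact sign test, p = 3.61e-49, adjusted p = 3.98e-48 over 11 comparisons). In PDS-bridged groups the gap had 52.3% GC (quartiles 47.1 and 56.5%), the separate control peaks 54.0% and the flanks 50.7%. It was lower than the separate peaks in 204 groups and higher in 133, with a median difference of -1.77 points (exact sign test, adjusted p = 0.000477). A gap below 40% GC was found in 232 of the 424 control-bridged groups (54.7%) and in 9 of the 339 PDS-bridged groups (2.65%).

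**Figure D3:**
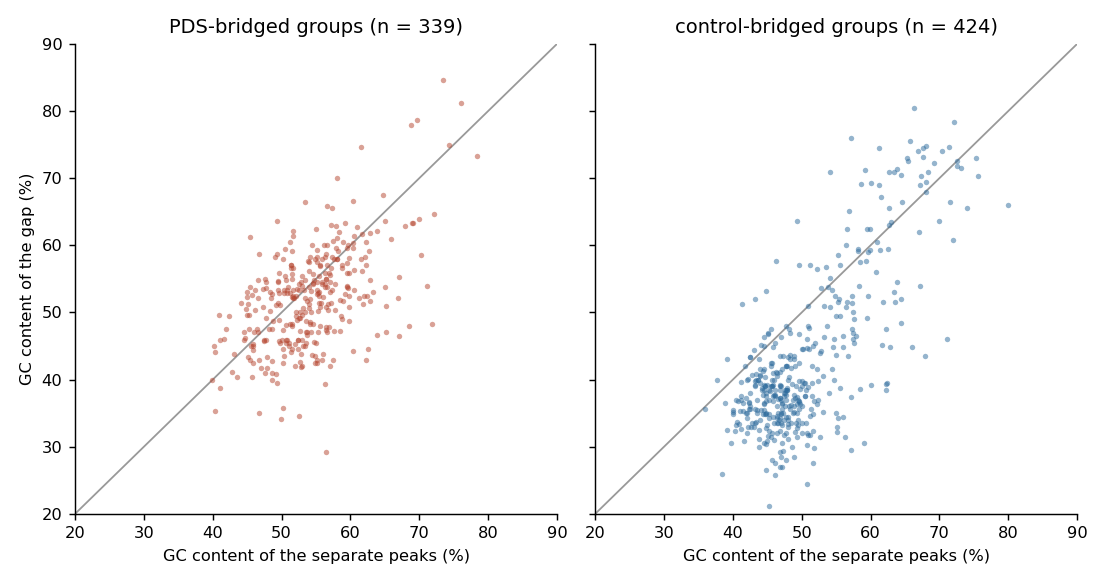
GC content of the gap (vertical axis, %) against that of the separate peaks of the same group (horizontal axis, %), 1 point per group, with the line of equal content. Of the control-bridged groups 356 had a lower and 66 a higher GC content in the gap than in the separate peaks, and of the PDS-bridged groups 204 and 133.

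The difference between the kinds was compared in tests that were added after these values were seen, 8 in all with p-values adjusted over them. The gap was below its separate peaks in 84.4% of control-bridged and 60.5% of PDS-bridged groups (odds ratio 3.52, two-sided Fisher's exact test, adjusted p = 1.10e-12). Among groups with 2 separate peaks and a gap of exactly 300 bp, a width on both grids, it was below in 45 of 52 control-bridged and 26 of 48 PDS-bridged groups (odds ratio 5.44, Fisher's exact test, adjusted p = 0.000673), and the median gap had 37.7% and 53.2% GC. At this width the exact sign test within the PDS-bridged groups did not pass the threshold (p = 0.665).

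A second comparison used gaps of the same list that the other list did not span either. Neighbouring PDS peaks up to 500 bp apart with a different control counterpart for each peak had 630 such gaps, with a median of 50.6% GC, and 434 gaps of the list were spanned by a control peak, with 39.5%. The gap was lower in GC than its neighbouring peaks in 65.3% of the former and 83.3% of the latter (odds ratio 2.65, Fisher's exact test, adjusted p = 1.43e-10). In the control list, 476 gaps were open in both lists, with 50.8% GC, and 345 were spanned by a PDS peak, with 52.2%. The gap was lower than its neighbours in 60% and 59.5% (odds ratio 0.978, Fisher's exact test, adjusted p = 0.885). Most gaps of the lists belonged to neither class, since 1 or both of their peaks had no counterpart in the other list. These 3090 gaps of the PDS list had a median of 47.2% GC and were lower than their neighbouring peaks in 76.1%, with a median difference of -4.78 points. The 846 such gaps of the control list had 42.6% GC and were lower in 69.9%, with a median difference of -3.40 points. A gap below its peaks in GC was thus frequent in gaps of every class, and the spanned gaps were not tested against this last class. The gaps open in both lists were wider, with medians of 350 bp (PDS) and 360 bp (control) against 250 and 240 bp.

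**Figure D4:**
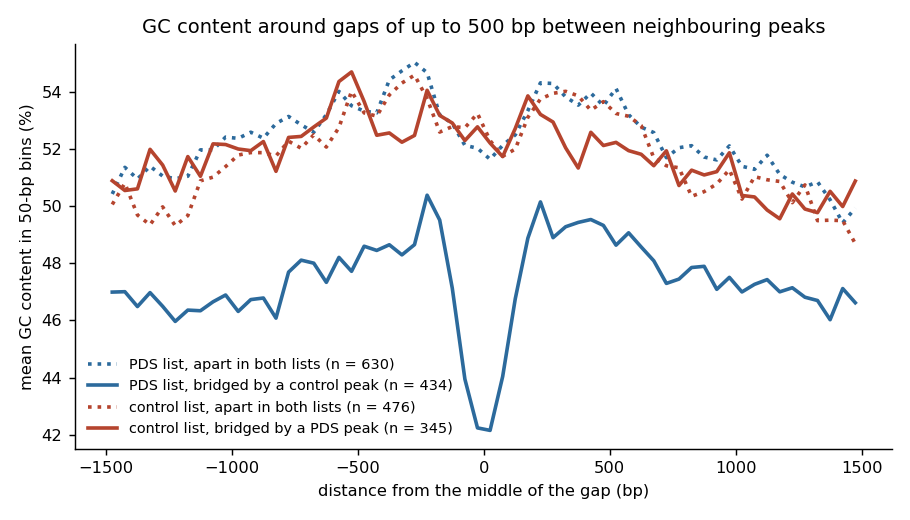
Mean GC content in 50-bp bins (vertical axis, %) by the distance from the middle of gaps of up to 500 bp between neighbouring peaks of a list (horizontal axis, bp), for gaps spanned by a peak of the other list (solid) and gaps open in both lists (dotted). At the middle of the gaps spanned by a control peak the mean was 42.1 to 42.2%, against 52.2 to 52.8% for gaps spanned by a PDS peak and 51.7 to 53.3% for gaps open in both lists.

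In the profile around the gaps, the low GC content of the control-bridged gaps was a local dip. The mean was 42.2% in the bins next to the middle, 48.6 and 49.3% at a distance of 475 bp and 47.0 and 46.6% at 1475 bp. The other 3 sets of gaps in the profile had no dip of this depth, and gaps next to a peak without counterpart were not profiled. Runs of 6 or more A or T made up 15.2% of the gap bases in control-bridged groups and 6.47% of their separate peaks. In PDS-bridged groups these shares were 5.62% and 4.73%. The ZSWIM5 and CD84 gaps shown above hold several such runs, and the SLC13A3 gap a single one.

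Groups with gaps at the ends of the range of GC content lay at different places. The 232 control-bridged groups with a gap below 40% GC lay mostly between genes or in introns (202, 87.1%), 3 lay at a gene start, and 35 (15.1%) had a G4 motif. The 50 with a gap above 60% GC included 24 at a gene start (48.0%), 42 (84.0%) had a G4 motif, and the gap was higher in GC than the separate peaks in 37. Of the 40 PDS-bridged groups with a gap above 60% GC, 8 lay at a gene start (20%), 29 (72.5%) had a G4 motif, and the gap was higher in 27. These groups were chosen by the GC content of the gap, which in part sets how often the gap is higher and a G-rich motif is present. In control-bridged groups at gene starts, among them those of EXOC7, ZNF25, STK17A and PIM1, the median gap had 67.5% GC and the median difference from the separate peaks was -1.34 points, against -5.95 points in exonic, -8.60 points in intergenic and -8.64 points in intronic groups. Among PDS-bridged groups the median difference was -6.55 points at gene starts, -2.11 in exons, -1.61 in introns and -0.89 in intergenic DNA. How fully DNA of different GC content was recovered in the libraries was not measured here, and its part in these differences was not tested.

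G4 motifs were more frequent in PDS-bridged than in control-bridged groups, but their lengths and surroundings differed as well. A motif was present in 160 of 339 PDS-bridged groups (47.2%, Wilson 95% confidence interval 41.9 to 52.5%) and 122 of 424 control-bridged groups (28.8%, 24.7 to 33.3%), an odds ratio of 2.21 (95% interval 1.64 to 2.99, two-sided Fisher's exact test, adjusted p = 9.96e-07). Within 10 strata of group length, the odds ratio was 1.42 (Mantel-Haenszel, n = 339 and n = 424 groups, interval 1.02 to 1.97, adjusted p = 0.107), which did not pass the threshold. In windows of 1000 bp at the centre of each group, a second comparison at equal length, the odds ratio was 1.66 (interval 1.22 to 2.28, Fisher's exact test, adjusted p = 0.00483), which passed it. One-to-one groups had a motif in 20.5%, and those of at least 1000 bp in 42.0%. Within strata of length, the odds ratio against one-to-one groups was 1.06 for PDS-bridged groups (0.829 to 1.35, n = 339, adjusted p = 0.712) and 0.672 for control-bridged groups (n = 424, 0.532 to 0.849, adjusted p = 0.00244). The surrounding GC content (500 to 2000 bp away) had a median of 50.0% around PDS-bridged, 45.1% around control-bridged and 46.9% around one-to-one groups. With strata of this surrounding GC content added, the odds ratio of control-bridged over one-to-one groups was 0.889 (n = 424, 0.694 to 1.14, adjusted p = 0.622). PDS-bridged and control-bridged groups were not compared with each other at equal GC content, so its part in the odds ratios between them was not tested.

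Motifs were not concentrated in the gaps of PDS-bridged groups. They held 73 motifs in gaps and 206 in separate peaks, or 0.572 and 0.553 per kb. In control-bridged groups the densities were 0.346 per kb of gap (44 motifs) and 0.470 per kb of separate peak (172 motifs). A motif lay in a gap and in no separate peak in 28 PDS-bridged and 10 control-bridged groups. Within the group near IRX4, an Iroquois homeobox gene, 6 of 11 motifs lay in the gaps.

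With the lists as deposited, the share of groups with the exact CTCF consensus did not differ beyond the threshold between the kinds. It was present in 111 PDS-bridged groups (32.7%, interval 28.0 to 37.9%) and 126 control-bridged groups (29.7%, 25.6 to 34.2%), with an odds ratio of 1.15 (0.846 to 1.57, Fisher's exact test, adjusted p = 0.621). With up to 1 mismatch it was found in 82.9% and 74.3% (odds ratio 1.68, 1.17 to 2.40, Fisher's exact test, adjusted p = 0.0105). PDS-bridged groups were longer, and this comparison was not made at equal length. For the exact consensus, the odds ratio was 0.876 within strata of length and 0.823 in windows of 1000 bp, neither beyond the threshold. One-to-one groups of at least 1000 bp had the exact consensus in 30.3%. A single separate peak usually carried it. It was present in exactly 1 separate peak in 104 PDS-bridged and 106 control-bridged groups, of which it was the widest peak in 96 and 90, and in 2 separate peaks in 6 and 2 groups. The widest separate peak also holds more bases, with a median width of 720 and 500 bp against 180 and 150 bp for the narrowest. With up to 1 mismatch, 61 PDS-bridged (18.0%) and 40 control-bridged groups (9.43%) had a site in at least 2 separate peaks. Exact sites in 2 separate peaks of a group were thus rare. Exact sites were few in separate peaks as a whole, with 122 sites in 701 control peaks and 111 in 862 PDS peaks, and no expected number was computed.

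Where the consensus lay relative to the gap differed between the kinds. In PDS-bridged groups 122 consensus sites lay in separate control peaks and 1 in a gap, in IGSF3. In control-bridged groups 111 lay in separate PDS peaks and 18 in gaps, each in a different group, and in 16 of these no separate peak had one. A site in a gap was thus found in 0.295% of PDS-bridged and 4.25% of control-bridged groups (odds ratio 15.0, Fisher's exact test added after these counts were seen, adjusted p = 0.000496). With up to 1 mismatch, 6 PDS-bridged (1.77%) and 46 control-bridged groups (10.8%) had a site in a gap and in no separate peak. Counted by length, exact sites numbered 0.00784 per kb of gap in PDS-bridged and 0.141 in control-bridged groups. The kinds lay closer together when all sites with up to 1 mismatch in gaps were counted. With up to 1 mismatch, 52 sites lay in gaps of PDS-bridged and 75 in gaps of control-bridged groups, or 0.407 and 0.589 sites per kb of gap, against 1.16 and 1.12 per kb of separate peaks. The values with 1 mismatch were not tested. Of the 18 exact sites, 15 lay whole in the gap, and the centres were 0 to 282 bp (median 48 bp) from the nearest PDS peak. The site farthest inside was near COL9A1, a collagen gene, in a gap of 950 bp. With gaps up to 500 bp as the unit, a whole site was found in 12 of 434 spanned and 7 of 630 open gaps of the PDS list (odds ratio 2.53, Fisher's exact test, adjusted p = 0.0780), and in 1 of 345 and 5 of 476 of the control list (odds ratio 0.274, Fisher's exact test, adjusted p = 0.468).

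The sites shown above illustrate the arrangement. Near ZNF518B, a control peak of 660 bp (fold 33.7, rank 10400 in its list) faced 2 PDS peaks of 100 bp each (folds 26.2 and 21.1), and the consensus lay 118 bp inside the 400 bp between them. In MICAL2, which encodes an actin-oxidizing enzyme, a control peak of 720 bp (fold 31.4) faced 2 PDS peaks of 150 bp (folds 26.1 and 14.4), with the consensus 51 bp inside a gap of 300 bp. Near TMEM14A, a control peak of 840 bp (fold 28.7) faced PDS peaks of 100 and 150 bp (folds 26.4 and 24.1). Near SCN9A, which encodes a voltage-gated sodium channel, a control peak of 900 bp (fold 26.9) faced PDS peaks of 100 and 300 bp (folds 4.89 and 18.5). The gaps at these 4 sites had 39.5, 39.0, 34.3 and 32.0% GC, respectively, against a median of 39.1% over all control-bridged groups. In the other control-bridged groups with a consensus in a gap, the GC content of the gaps was 31.7 to 49.5%. Whether low GC content and a consensus inside the gap go together was not tested.

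**Figure D5:**
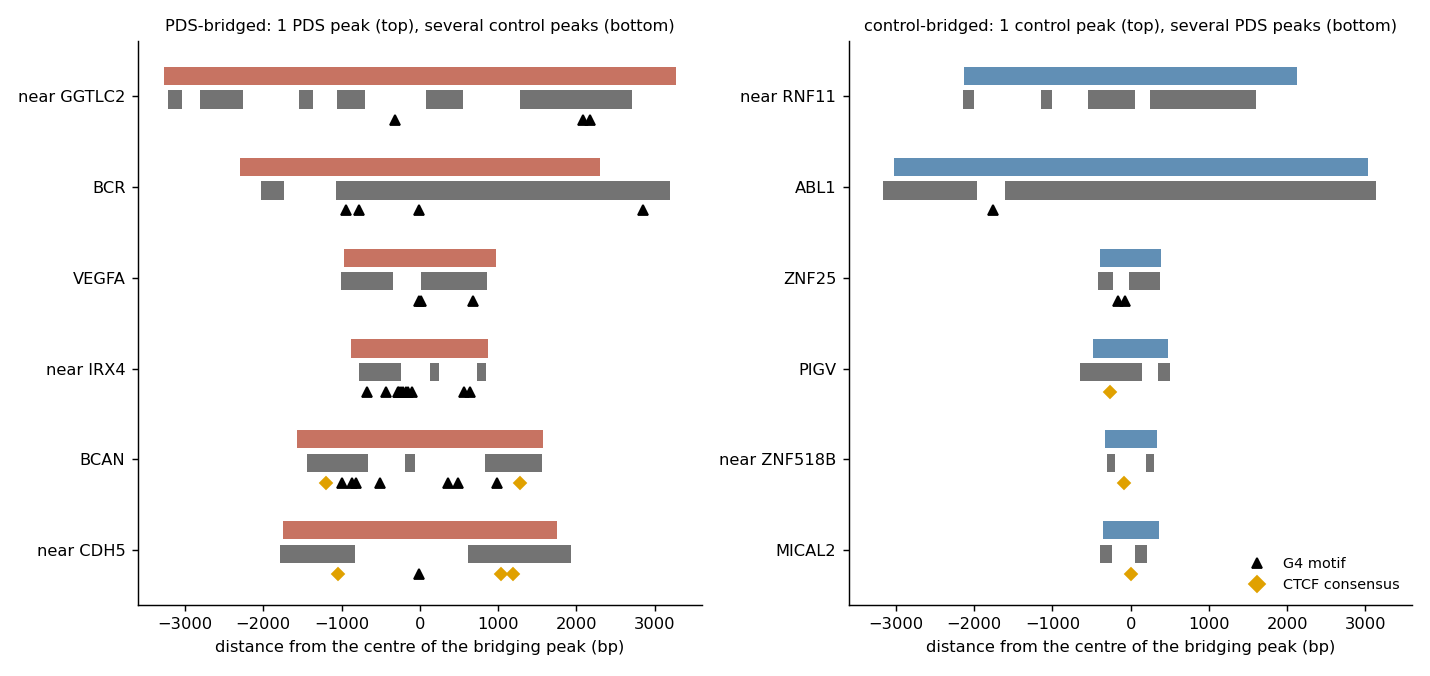
Peaks of 12 split groups by distance from the centre of the bridging peak (horizontal axis, bp), with the bridging peak on top, the separate peaks of the other list below it, and G4 motifs (triangles) and exact CTCF consensus sites (diamonds) under them. The group near GGTLC2 has 6 control peaks under 1 PDS peak of 6550 bp, and in the group near ZNF518B the consensus lies between the 2 PDS peaks.

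The place of the groups relative to protein-coding genes was counted. Of the 339 PDS-bridged groups, 33 (9.73%) covered the start of a protein-coding gene, 115 (33.9%, interval 29.1 to 39.1%) overlapped an exon, 58 (17.1%, 13.5 to 21.5%) lay in an intron and 133 (39.2%) between genes. Control-bridged groups had 8.96%, 15.8% (12.6 to 19.6%), 29.95% (25.8 to 34.5%) and 45.3%, and one-to-one groups 6.50%, 18.9%, 32.5% and 42.1%. Exons counted here are those of any transcript of a protein-coding gene. The shares in exons and introns were not tested and not compared at equal length. A longer group reaches a gene start or an exon more often, and median lengths were 1400, 1100 and 500 bp, respectively. One-to-one groups of at least 1000 bp covered a gene start in 8.51%. At gene starts no difference between the kinds was detected (odds ratio 1.10, interval 0.671 to 1.79, Fisher's exact test, adjusted p = 0.802).

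Split groups were unevenly spread. Chromosome 22 had 63 among 726 overlap groups (8.68%, interval 6.84 to 10.9%) and chromosome 1 150 among 2982 (5.03%, 4.30 to 5.87%), compared with 3.10% in all (2.89 to 3.32%). The lowest shares were on chromosome 4 (4 of 665, 0.602%) and chromosome X (5 of 557, 0.898%), and neither had a PDS-bridged group. In bins of 5 Mb, the interval from 20 to 25 Mb of chromosome 22, which holds BCR, had 51 split among 240 groups (21.2%, 16.5 to 26.9%), namely 23 PDS-bridged, 21 control-bridged and 7 mixed. The next by number was 130 to 135 Mb of chromosome 9, which holds ABL1, with 14 among 156 (8.97%, 5.42 to 14.5%). Among intervals with at least 10 split groups, it did not have the next highest share. There, 40 to 45 Mb of chromosome 6 had 13 among 126 (10.3%, 6.13 to 16.9%). On chromosome 1, 225 to 230 Mb and 110 to 115 Mb had 10 among 88 (11.4%) and 10 among 101 (9.90%). Some intervals with fewer split groups had higher shares, such as 110 to 115 Mb of chromosome 7 with 3 among 13 (23.1%, 8.18 to 50.3%). The intervals of chromosomes 22 and 9 were pooled because they hold the genes of the fusion. In these 2 intervals and elsewhere, the median length was 600 and 500 bp, respectively, for one-to-one groups and 2650 and 1220 bp for split groups. The other parts of the chromosomes held 722 split among 25007 groups (2.89%), 312 PDS-bridged, 395 control-bridged and 15 mixed, and there the difference between gap and separate peaks was -1.83 points in PDS-bridged and -8.29 points in control-bridged groups. Copy number was not analysed here, and its part was not tested.

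Many of the most divided groups came from this stretch of chromosome 22. Near GGTLC2, a PDS peak of 6550 bp (chr22:23030051-23036600, fold 19.1) lay over 6 control peaks of 180 to 1440 bp, whose folds ranged from 7.37 to 28.3. At TOP3B, which encodes a topoisomerase, a PDS peak of 4850 bp lay over 4 control peaks. PRAME, a gene of the cancer-testis antigen family, had a PDS peak of 1600 bp at its start that ranked 2 by p-value in the PDS list, over control peaks of 960 bp (fold 73.1) and 180 bp (fold 9.52). At the start of BCR a PDS peak of 4600 bp (chr22:23517451-23522050, fold 19.6, rank 3 by p-value) lay over control peaks of 300 and 4260 bp, the larger with all 4 G4 motifs of the group. BCR had 2 further PDS-bridged groups, with gaps of 480 and 360 bp.

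ABL1, the tyrosine kinase gene joined to BCR in these cells, had groups of both kinds. A control peak of 6060 bp (fold 16.8, rank 14 by p-value) lay over PDS peaks of 1200 bp (fold 5.12) and 4750 bp (fold 19.9), with a G4 motif in the gap of 350 bp. Control peaks of 1140 and 600 bp also lay over 2 PDS peaks each, and a PDS peak of 2700 bp lay over 2 control peaks 240 bp apart. The direction of the split thus changed within a single gene.

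Outside these regions, the widest gap was in a PDS-bridged group near CDH5, the vascular cadherin gene, where a PDS peak of 3500 bp (fold 18.4) spanned 1440 bp between control peaks of 960 bp (fold 14.9) and 1320 bp (fold 30.9). Both control peaks had a CTCF consensus, and the gap had 1 G4 motif. At the start of VPS18, a gene of vesicle sorting, a PDS peak of 3150 bp spanned 1020 bp between control peaks with folds of 29.0 and 86.7. In VEGFA, the gene of a vascular growth factor, the gap of 360 bp (chr6:43741681-43742040) had 56.7% GC against 57.2% in the control peaks, and the motif shown above lies near its right edge. In BCAN, which encodes a brain proteoglycan, 3 of 7 G4 motifs lay in the gaps of 480 and 900 bp, and the consensus lay in both outer control peaks.

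Among control-bridged groups, the most divided was near RNF11, a gene of a RING-finger protein, where a control peak of 4260 bp (fold 16.0) lay over 4 PDS peaks of 150 to 1350 bp with folds of 8.37 to 22.9, and the gaps had 35.6% GC against 42.3% in the peaks. The bridging peak with the highest fold was in PIGV, an enzyme of GPI-anchor synthesis, with 96.4 (rank 299 in the control list), over PDS peaks of 800 bp (fold 39.8), which held the consensus, and 150 bp (fold 8.78), and the gap of 200 bp had 38.5% GC. At the start of ZNF25, a zinc-finger gene, the gap of 200 bp had 74.5% GC and both motifs of the group. The group at PIM1, which encodes a serine/threonine kinase, had PDS peaks of low fold (8.29 and 7.48), and gap and peaks had the same GC content of 72.5%.

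The 3 longest mixed groups were on chromosome 22, in MED15, a Mediator subunit gene (8350 bp, 4 control and 2 PDS peaks), and near IGLL5 (8020 bp with 2 and 4 peaks, and 6220 bp with 3 and 2). Of the 24 mixed groups, 15 had 2 peaks of both lists and 14 had a G4 motif.

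Genes of 4 lists were examined, each against all protein-coding genes with a shared group in the gene or within 5 kb, of which 653 of 11332 (5.76%) had a split group. Among oncogenes with a known promoter G4, 2 of 14 had a split group (VEGFA and ABL1). Among erythroid and blood stem cell regulators, 2 of 15 had one, namely FLI1, an ETS factor, with 2 control peaks 240 bp apart in an intron (folds 23.4 and 22.9), and LYL1, through a group in the neighbouring NFIX gene (folds 21.9 and 85.2). Among genes of cytokine and growth factor signalling, 3 of 18 had one (BCR, ABL1 and PIM1), and of CTCF and cohesin genes 0 of 14. These counts are too small to be read against the background, and BCR and ABL1 lie in the intervals named above.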

How the data were processed

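CTCF ChIP-seq peaks of control and PDS-treated K562 cells were taken as deposited. Per the labels and methods, the authors aligned reads to hg19 with Bowtie2 2.2.3, filtered them with SAMtools and called peaks with PePr jointly on the replicates of a condition. For each peak the authors deposited the position, a score (not used), a fold enrichment over IgG, used as a ratio for ranks within a list, and a p-value, used for ranks and to take the 50% of peaks with the smallest values. Labels and methods differ on single-end or paired-end reads. Peaks on other sequences were left out (25 control and 24 PDS peaks).

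Overlaps were computed in Python and checked with Bedtools 2.31.1. Sequences came from GRCh37 and genes from GENCODE v44lift37 (protein-coding), with pyfaidx 0.9.0.4. Motif shares were compared by two-sided Fisher's exact tests or Mantel-Haenszel odds ratios over 10 strata of length (statsmodels 0.14.6, scipy 1.17.1), and gaps by exact sign tests. P-values were adjusted by Benjamini-Hochberg over 11 comparisons, with a threshold of 0.05. A further 8 tests, merging within 250 bp, merging of PDS peaks alone, removal of minimum-width peaks, gaps of at least or exactly 300 bp and removal of the 2 intervals on chromosomes 22 and 9 were chosen after seeing the data. Groups are not replicates, and neighbouring groups share their surroundings. Steps were tested on simulated data.

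The split groups, gene lists and tests were chosen with earlier results of these data known. Named groups, per kind, were the 6 with the most separate peaks, the widest gap, the highest fold of the bridging peak and the most G4 motifs in gaps, those of the gene lists and of genes named in the study, and the 3 longest mixed groups. Only some of these are described. The groups at ZNF518B, MICAL2, TMEM14A, SCN9A, SLC13A3, ZSWIM5, CD84 and IGSF3 fall outside this rule and were chosen after their values were seen. The sequences of 2 gaps are not reported here.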

Additional observations from a re-analysis of the deposited data

How the results depend on the processing

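Merging within 100 bp and gaps of at least 200 bp could change nothing, since no gap is shorter than 200 bp, and merging PDS peaks alone within 200 bp repeats that step in both lists. Without these values, 91 values under alternatives remain, of which 51 kept their direction and side of the threshold or stayed within the limit for counts of 1.5 times, 17 moved, 5 no longer passed the threshold, 3 newly passed it and 15 changed direction. The median GC difference between gap and separate peaks was negative in both kinds with exactly 2 separate peaks, at gaps of exactly 300 bp and without the 2 intervals of chromosomes 22 and 9, and that of PDS-bridged groups did not pass the threshold at gaps of exactly 300 bp (-1.03 points). Where the construction does not give the cause, the cause was not tested.

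The log2 ratio of PDS-bridged to control-bridged groups, -0.32 as deposited, was 0.73 with peaks within 200 bp merged (also with the PDS peaks alone merged), 0.82 within 250 bp, 2.01 within 500 bp and 0.41 with a gap of at least 300 bp. Control-bridged groups became fewer with fewer peaks or with merging within 200 bp or more. PDS-bridged groups became fewer with fewer peaks, but numbered 437, 355 and 338 after merging within 200, 250 and 500 bp. The 50% smallest p-values of either list gave 63 PDS-bridged, 83 control-bridged and 9 mixed groups, and peaks of at least 200 bp gave 139, 173 and 12. Control-bridged groups numbered 264, 201 and 84 after merging within 200, 250 and 500 bp (mixed groups 15, 11 and 15), and 143 with a gap of at least 300 bp (PDS-bridged groups 190). PDS-bridged groups numbered 189 without minimum-width peaks. Mixed groups numbered 10 with an overlap of 50% of the shorter peak and 15 without the 2 intervals of chromosomes 22 and 9.

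The odds ratio of a G4 motif in PDS-bridged over control-bridged groups no longer passed the threshold within strata of length (1.42), with the 50% smallest p-values (1.33) and with peaks of at least 200 bp (1.42). It passed in windows of 1000 bp (1.66), with loops of 1 to 12 nt (3.11), an overlap of 50% of the shorter peak (2.17) and merging within 200 bp (2.65) or 250 bp (2.28), and without the 2 intervals (2.37, unadjusted). That of control-bridged over one-to-one groups no longer passed it with strata of surrounding GC content (0.889). PDS-bridged over one-to-one groups, 1.06, turned to 0.925 in windows of 1000 bp and 0.970 with strata of surrounding GC content. The consensus odds ratio, 1.15, passed the threshold with peaks within 250 bp merged (1.60) and with up to 1 mismatch (1.68), was 2.01 with the 50% smallest p-values without passing it, and turned to 0.823 in windows of 1000 bp and 0.876 within strata of length. That of PDS-bridged over one-to-one groups passed the threshold in windows of 1000 bp (0.719), and that of control-bridged over one-to-one groups did not (1.02). The odds ratio of gene starts, 1.10, turned to 0.821 with the 50% smallest p-values, 0.865 with peaks of at least 200 bp, 0.973 with merging within 200 bp, in both lists or in the PDS list alone, 0.768 in windows of 1000 bp and 0.930 within strata of length, and against one-to-one groups (1.20) to 0.988 in windows of 1000 bp. None of the gene start values passed the threshold. The ratio of G4 motif density in gaps over separate peaks of PDS-bridged groups, 1.03, was 0.971 with exactly 2 separate peaks.

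No paired analysis was possible because the replicates of a condition were called together into a single list, which also gives no value without a replicate. A gap in a list is a stretch that was not called there. Without depths, it does not show that CTCF was absent.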
